A study of Mus musculus with 6 samples.

Results

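The TNF ligand and receptor superfamily was described in the RNA of 3 Dnmt3b+/- peripheral T-cell lymphomas (PTCL). Its members were taken by symbol, as every gene whose name opens with Tnfsf (the ligands) or Tnfrsf (the receptors) followed by a number. This gave 32 of 34245 genes in the table, made up of 11 ligands, 20 receptors and 1 antisense RNA, Tnfsf13os. The tumors came from lymph nodes of terminally sick FVB mice that carry a germline loss of 1 Dnmt3b allele, and each is an independent lymphoma. No age or treatment was given for these mice in the sources used here, and each sample is RNA of whole tumor tissue with no sorting of cells stated. All 3 tumors form 1 group, so the spread between tumors is described and no difference between groups was tested.

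TNF ligands are mostly trimers on the cell surface, some of them shed, that cluster their receptors on a neighboring cell. Receptors with a death domain can start apoptosis, while the others bind TRAF adaptors and activate NF-kB and MAP kinases. In T-cells, receptors such as OX40, 4-1BB, GITR, HVEM and DR3 give costimulatory signals after the antigen receptor has been engaged, and in B-cells the receptors for BAFF and APRIL support survival. Soluble or truncated decoy receptors bind ligand without passing on a signal.

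The authors gave expression as FPKM, fragments corrected for exon length and library size, so that levels can be compared between genes on a scale per length. Series of values below follow the order of tumors 1, 2 and 3 unless a tumor is named. Library sizes of 30726570, 18969988 and 20770928 reads underlie them, recovered from the FPKM that genes without a read hold. A gene without a read is listed with the FPKM of 0.9 read and not with 0. Read numbers given below were recovered in the same way, and 95% exact Poisson intervals and the limit of 3 reads that a count of 0 allows cover counting error only.

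Marker genes were read in each tumor before the family was described, and the gene said to lead a list is the one with the highest mean over the tumors. The 8 T-cell markers summed to 801, 812 and 878 FPKM, led by Trac, and all 8 were above 0.2 FPKM in every tumor. Cd8a and Cd8b1 together had 693, 288 and 661 FPKM in tumors 1, 2 and 3. The CD4 list, Cd4 and Zbtb7b, had 31.4, 6.92 and 11.4 FPKM. Markers of mature T-cells were thus high in all 3 tumors, and those of CD8+ cells were far above those of CD4+ cells in each.

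RNA of other cell types differed between the tumors. The 4 genes of regulatory T-cells summed to 84.0, 11.4 and 10.6 FPKM, led by Il2ra, which activated T-cells also express. The 5 B-cell markers summed to 54.8, 48.4 and 106 FPKM, led by Cd79a, and the 4 plasma cell genes to 829, 191 and 208 FPKM, of which Jchain made up most. Without Jchain the plasma cell genes summed to 15.0, 6.32 and 29.5 FPKM, so the order of the tumors in that list rests on 1 gene. The 6 macrophage markers, led by Lyz2, stood at 399.7, 134 and 35.6 FPKM, the widest range among the lists of immune cells apart from neutrophil genes. Tumor 1 was thus highest for the sums of regulatory T-cell and macrophage genes, and tumor 3 for that of B-cell genes. Those 5 neutrophil genes summed to 35.9, 1.35 and 14.8 FPKM, with S100a9 in the lead and no read of Elane in any tumor. Dendritic cell genes, 5 in all and led by Xcr1, had 6.74, 3.52 and 2.87 FPKM, and the 4 NK genes had 20.8, 45.5 and 48.6 FPKM, most of it Eomes, which CD8+ T-cells express too. Of the other NK genes, Ncr1 had 0.380, 0.205 and 0.125 FPKM and Klrb1c had 0.308, 5.77 and 3.38 FPKM, with opposite order between tumors 1 and 2. Sums of fibroblast, endothelial and pancreas genes were lowest in tumor 3. The 5 fibroblast genes, led by Col1a1, had 9.08, 27.8 and 0.363 FPKM, the 4 endothelial genes, led by Pecam1, 13.6, 12.8 and 5.13 FPKM, and 6 genes of the exocrine pancreas, led by Ctrb1, 70.5, 386 and 0.603 FPKM. The 4 epithelial genes, led by Epcam and without a read of Krt19, had 0.563, 1.84 and 0.526 FPKM. In bulk tissue, fewer cells of a type and less RNA per cell cannot be told apart.

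Expression above 0.2 FPKM in every tumor was found for 20 of the 32 members (62.5%), against 36.7% of all genes and 49.2% of protein-coding genes. Another 10 members passed 0.2 FPKM in at least 1 tumor but not in all, and 2 ligands, Tnfsf15 and Tnfsf18, passed it in none. Every tumor was above it for 15 of 20 receptors and 5 of 11 ligands, a difference that was not tested. The ligands found in every tumor were Tnfsf8, Tnfsf9, Tnfsf10, Tnfsf11 and Tnfsf14. Over all 32 members the median of the mean FPKM was 1.61, with 1.28 for ligands and 2.04 for receptors. Among the 30 members above 0.2 FPKM in at least 1 tumor it was 1.69, below the 3.17 of the 15859 genes that meet the same condition.

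**Figure D1:**
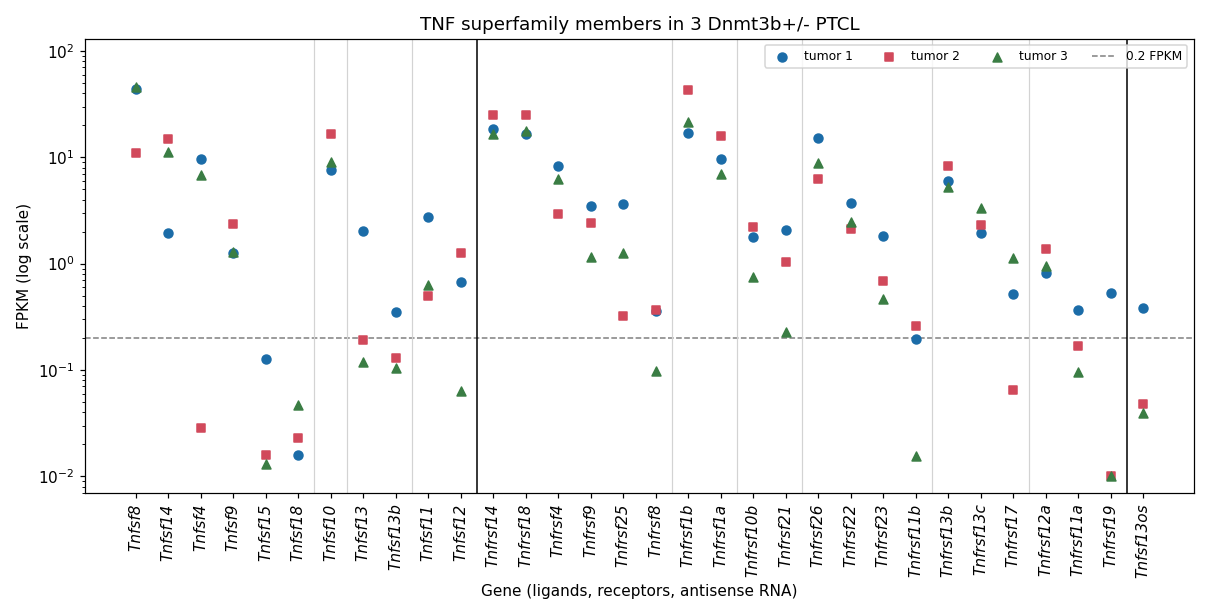
FPKM of each of the 32 members on a log axis, with 1 point per tumor (circle, tumor 1; square, tumor 2; triangle, tumor 3), ligands left, receptors in the middle and the antisense RNA right of the black lines. Grey lines part functional groups and the dashed line marks 0.2 FPKM. Tnfsf8 and Tnfrsf1b have the highest means, and Tnfsf4 has the widest gap between tumors.

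Ligand members summed to 70.8, 47.2 and 74.9 FPKM (mean 64.3 ± 14.9, SD, n = 3). Receptor members summed to 112, 139 and 94.8 FPKM (mean 115 ± 22.5, SD, n = 3). Tumor 2 thus had the lowest ligand sum and the highest receptor sum. Its low ligand sum came from Tnfsf8, which made up 62.6%, 23.4% and 60.8% of the ligand FPKM. Without Tnfsf8 the ligands summed to 26.5, 36.2 and 29.4 FPKM, and tumor 2 was then the highest.

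Sequence before the start of transcription is shown for 6 members that carry the main levels and contrasts below: the most abundant ligand and receptor (Tnfsf8, Tnfrsf1b), a ligand low in tumor 1 and a receptor low in tumor 2 (Tnfsf14, Tnfrsf25), a B-cell receptor with like values in all tumors (Tnfrsf13b) and a receptor read almost only in tumor 1 (Tnfrsf19). The runs come from RefSeq promoter windows of GRCm38.p6, the same build as mm10, and are printed 5′ to 3′ on the strand of the gene, up to 250 bases and ending before the gene's start in the table. That of Tnfrsf19 ends at a RefSeq start that lies 365 bases before the start in the table. Capitals mark each CG dinucleotide, the base pair step at which mammalian DNA methyltransferases add methyl groups. Methylation of these windows was not analysed here.
Tnfsf8, chr4:63861348-63861534, minus strand: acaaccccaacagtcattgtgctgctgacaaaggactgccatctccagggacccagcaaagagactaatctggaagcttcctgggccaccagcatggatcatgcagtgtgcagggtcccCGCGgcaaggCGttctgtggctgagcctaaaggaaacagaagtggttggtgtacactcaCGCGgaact
Tnfrsf1b, chr4:145246871-145247120, minus strand: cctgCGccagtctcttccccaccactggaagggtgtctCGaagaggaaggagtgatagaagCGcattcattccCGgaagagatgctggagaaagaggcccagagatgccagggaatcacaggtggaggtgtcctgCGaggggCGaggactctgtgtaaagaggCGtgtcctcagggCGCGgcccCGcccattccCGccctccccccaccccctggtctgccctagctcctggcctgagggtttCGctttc
Tnfsf14, chr17:57194190-57194431, minus strand: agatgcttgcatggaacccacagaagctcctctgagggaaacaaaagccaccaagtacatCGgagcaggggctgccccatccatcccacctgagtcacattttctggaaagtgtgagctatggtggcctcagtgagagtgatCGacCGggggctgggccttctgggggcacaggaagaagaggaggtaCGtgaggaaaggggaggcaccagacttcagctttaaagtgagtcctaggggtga
Tnfrsf25, chr4:152115684-152115933, plus strand: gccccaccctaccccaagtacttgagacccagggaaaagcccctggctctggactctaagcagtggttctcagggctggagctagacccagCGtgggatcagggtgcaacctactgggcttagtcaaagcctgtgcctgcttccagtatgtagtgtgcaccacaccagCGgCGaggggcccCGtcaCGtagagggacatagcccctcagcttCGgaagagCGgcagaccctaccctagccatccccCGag
Tnfrsf13b, chr11:61126505-61126754, plus strand: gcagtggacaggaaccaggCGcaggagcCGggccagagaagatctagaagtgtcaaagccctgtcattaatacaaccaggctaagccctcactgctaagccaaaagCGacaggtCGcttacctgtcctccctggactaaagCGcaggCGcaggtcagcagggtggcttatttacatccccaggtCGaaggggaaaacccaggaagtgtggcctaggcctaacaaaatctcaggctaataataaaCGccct
Tnfrsf19, chr14:61046856-61047105, minus strand: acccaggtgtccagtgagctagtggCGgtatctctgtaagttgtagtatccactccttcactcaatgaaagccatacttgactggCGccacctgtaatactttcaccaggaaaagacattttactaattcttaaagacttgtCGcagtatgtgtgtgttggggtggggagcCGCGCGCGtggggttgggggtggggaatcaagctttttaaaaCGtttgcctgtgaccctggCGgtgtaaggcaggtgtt

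A window was matched by symbol for 24 of the 32 members. Over their 250 bases before the RefSeq start, the number of CG ranged from 2 (Tnfrsf14 and Tnfrsf18) to 31 (Tnfrsf11a), with a median of 7 against 6 over 32817 windows of all genes, 92.1% of which hold at least 1 CG. The RefSeq start can lie inside the gene as the table gives it. It does so by 486 bases for Tnfrsf14, 158 for Tnfrsf18, 230 for Tnfsf13, 361 for Tnfrsf1a and 5593 for Tnfrsf9. The windows of these genes thus lie wholly or mostly within the gene. The search for CG reads the same on both strands. At most 5 CG were found in 11 of the 24 members and in 49.7% of all windows. Tnfrsf1b had 12 CG, and 68.5% of all windows had no more. Tnfsf14 had 4, and 44.4% of all windows had no more. Tnfrsf25, Tnfrsf13b and Tnfsf8 had 8 CG each over the full window, a number not exceeded in 59.7% of windows. No relation of CG number to FPKM was tested.

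Among the costimulatory ligands, Tnfsf8 (CD30 ligand, ENSMUSG00000028362, chromosome 4) was the most abundant, with 44.4, 11 and 45.5 FPKM (mean 33.6 ± 19.6, SD, n = 3), from 5190, 797 and 3601 reads. Tumor 2 was 4.13 times below tumor 3, and tumors 1 and 3 were nearly equal, with their order turned when FPKM were rescaled to equal sums. Its receptor Tnfrsf8 (CD30), a marker of activated lymphocytes and of some lymphomas, had 0.358, 0.366 and 0.0974 FPKM from 38, 24 and 7 reads. Ligand RNA exceeded receptor RNA by 124, 30.2 and 467 times.

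Tnfsf4 (OX40 ligand, ENSMUSG00000026700, chromosome 1) had 9.70, 0.0286 and 6.85 FPKM, and the value in tumor 2 is that of 1 read beside 549 and 262 reads in the others. The ratio of tumor 1 to tumor 2 was 339, with a 95% exact interval from 60.6 to 13412. Tnfsf4 is made chiefly by antigen-presenting cells and also by activated T-cells. Its mean of 5.53 FPKM was 8.27 without tumor 2 and was 3.44 without tumor 1. Its receptor Tnfrsf4 (OX40), which activated and regulatory T-cells carry, had 8.23, 2.94 and 6.24 FPKM (mean 5.80 ± 2.67, SD, n = 3). Both partners were thus lowest in tumor 2, yet the receptor kept 76 reads there. Of the regulatory T-cell genes, Ctla4 had 34, 0.339 and 4.46 FPKM, Foxp3 had 5.12, 1.07 and 3.32 FPKM and Ikzf2 had 1.62, 0.0318 and 0.9 FPKM, all lowest in tumor 2, while Il2ra was lowest in tumor 3. The part of these cells in the values of Tnfsf4 and Tnfrsf4 was not tested.

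Tnfsf14 (LIGHT, ENSMUSG00000005824, chromosome 17), a ligand of T-cells that binds HVEM and the lymphotoxin beta receptor, ran the other way. It had 1.94, 15.0 and 11.2 FPKM, from 111, 529 and 431 reads, a range of 7.72 times. Its receptor Tnfrsf14 (HVEM) had 18.5, 25.0 and 16.6 FPKM (mean 20.1 ± 4.42, SD, n = 3) and was among the members with the narrowest range, 1.51 times. Tumor 1 was low for the ligand only.

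Tnfrsf18 (GITR, ENSMUSG00000041954, chromosome 4), high on regulatory and activated T-cells, had 16.6, 24.8 and 17.7 FPKM (mean 19.7 ± 4.48, SD, n = 3). In the FPKM as given its range, 1.5 times, was the narrowest of the 20 members at a mean of 1 FPKM or more. It was not the narrowest with median-of-ratios factors (1.69 times, Tnfrsf14 1.52) or with FPKM rescaled to equal sums (1.52 times, Tnfrsf13c 1.45). The ligand of Tnfrsf18, Tnfsf18, had 1, 0 and 2 reads. Of the exon bases of Tnfrsf18, 27.2% overlap the antisense gene Gm16008, whose reads cannot be told apart without strand. The regulatory T-cell list summed to 84.0, 11.4 and 10.6 FPKM, and the part of these cells in Tnfrsf18 was not tested.

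Tnfrsf25 (DR3, ENSMUSG00000024793, chromosome 4), a death domain receptor that costimulates T-cells, had 3.64, 0.324 and 1.25 FPKM, from 255, 14 and 59 reads. Tumor 1 held 69.9% of its summed FPKM. Its ligand Tnfsf15 (TL1A), a product of endothelial and myeloid cells, had 13, 1 and 0 reads, and stayed at or under 0.126 FPKM. Tnfrsf9 (4-1BB), induced on activated CD8+ T-cells, had 3.48, 2.42 and 1.15 FPKM (mean 2.35 ± 1.17, SD, n = 3), and its ligand Tnfsf9 had 1.27, 2.36 and 1.29 FPKM (mean 1.64 ± 0.621, SD, n = 3). The receptor was 3.03 times higher in tumor 1 than in tumor 3, while the ligand in those tumors was nearly equal. In the exons of Tnfsf9, 14.9% of bases overlap the antisense transcript Gm11110.

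Both TNF receptors were well expressed. Tnfrsf1b (TNFR2, ENSMUSG00000028599, chromosome 4), which lacks a death domain and is carried mainly by leukocytes, had 17.0, 42.7 and 21.3 FPKM (mean 27.0 ± 13.8, SD, n = 3), the highest mean of the receptor members. Tnfrsf1a (TNFR1), the widely expressed death domain receptor, had 9.57, 16.0 and 7.04 FPKM (mean 10.9 ± 4.6, SD, n = 3). Both were highest in tumor 2, at 2.51 and 2.27 times their lowest tumor. Their ligands were lower. Tnf had 3.61, 4.05 and 1.88 FPKM and Lta (lymphotoxin alpha) had 3.65, 2.78 and 3.48 FPKM, so that each receptor exceeded each ligand in every tumor.

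Of the TRAIL axis, Tnfsf10 (TRAIL), which induces apoptosis in susceptible cells, had 7.65, 16.7 and 9.09 FPKM (mean 11.2 ± 4.87, SD, n = 3). Its receptor Tnfrsf10b (DR5) had 1.77, 2.20 and 0.751 FPKM (mean 1.58 ± 0.747, SD, n = 3), and the ligand exceeded it in each tumor, by 4.31, 7.58 and 12.1 times. Tnfrsf21 (DR6), another death domain receptor, had 2.07, 1.05 and 0.226 FPKM, from 231, 72 and 17 reads. Its mean of 1.12 FPKM fell to 0.636 without tumor 1. Tumor 3 was thus lowest for both receptors, by 2.94 and 9.19 times. Of the 11197 genes with a mean of at least 1 FPKM, 4189 were lowest in that tumor. It was also lowest for the sums of the fibroblast, endothelial, macrophage, pancreas, regulatory T-cell, dendritic cell and epithelial lists given above. The other lists were lowest in tumor 1 or 2. Fibroblast and pancreas sums were highest in tumor 2, unlike Tnfrsf21. The part of those cells was not tested.

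Mouse chromosome 7 carries the TRAIL decoy receptors Tnfrsf22 and Tnfrsf23 beside their relative Tnfrsf26, within 143607659 to 143685872 and on the minus strand. Tnfrsf26 (ENSMUSG00000045362) had 15.1, 6.29 and 8.75 FPKM (mean 10.04 ± 4.54, SD, n = 3). Tnfrsf22 had 3.70, 2.11 and 2.47 FPKM (mean 2.76 ± 0.832, SD, n = 3), and Tnfrsf23 had 1.82, 0.692 and 0.462 FPKM, with a mean of 0.990 that fell to 0.577 without tumor 1. All 3 genes were highest in tumor 1, and their order, Tnfrsf26 over Tnfrsf22 over Tnfrsf23, was the same in each tumor. Of the 100-base windows in the transcripts of Tnfrsf22, 8.97% also occur in Tnfrsf23, and further stretches recur in noncoding genes, so reads there may have been lost to the mapping quality limit or split. The antisense gene E230032D23Rik overlaps 4.14% of the exon bases of Tnfrsf23 and 3.33% of those of Tnfrsf26. No such window of Tnfrsf26 occurs in another gene. Tnfrsf11b (osteoprotegerin), the soluble decoy for RANK ligand and TRAIL, had 0.196, 0.262 and 0.0154 FPKM, from 17, 14 and 0 reads. Tumor 2 was at least 5.11-fold higher than tumor 3 against the limit of 3 reads, and the 5 fibroblast genes had 27.8 and 0.363 FPKM in the same tumors. Stromal cells are a usual source of osteoprotegerin, and their part was not tested.

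B-cell receptors of the family were set beside B-cell markers. Tnfrsf13b (TACI, ENSMUSG00000010142, chromosome 11), which binds BAFF and APRIL, had 5.96, 8.25 and 5.23 FPKM (mean 6.48 ± 1.58, SD, n = 3), from 519, 444 and 308 reads. Tnfrsf13c (BAFF receptor) had 1.95, 2.30 and 3.37 FPKM (mean 2.54 ± 0.736, SD, n = 3). Neither range reached 2 times in the FPKM as given. Cd79a over the same tumors had 23.1, 7.31 and 49.0 FPKM, Cd79b 20.1, 3.72 and 35.5 FPKM and Ms4a1 (CD20) 3.98, 0.4 and 5.31 FPKM. All 3 B-cell markers were thus lowest in tumor 2, where Tnfrsf13b was highest. The ratio of Tnfrsf13b to Cd79a was 0.258, 1.13 and 0.107, and its ratio to Ms4a1 was 1.5, 20.6 and 0.984. For Tnfrsf13c the ratio to Cd79a was 0.0844, 0.315 and 0.0687. Cd22, a lectin receptor of B-cells on the same marker list, had 5.84, 36.5 and 13.9 FPKM and was likewise highest in tumor 2, and it holds most of the B-cell sum there. Which cells carried these transcripts cannot be read from bulk RNA.

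**Figure D2:**
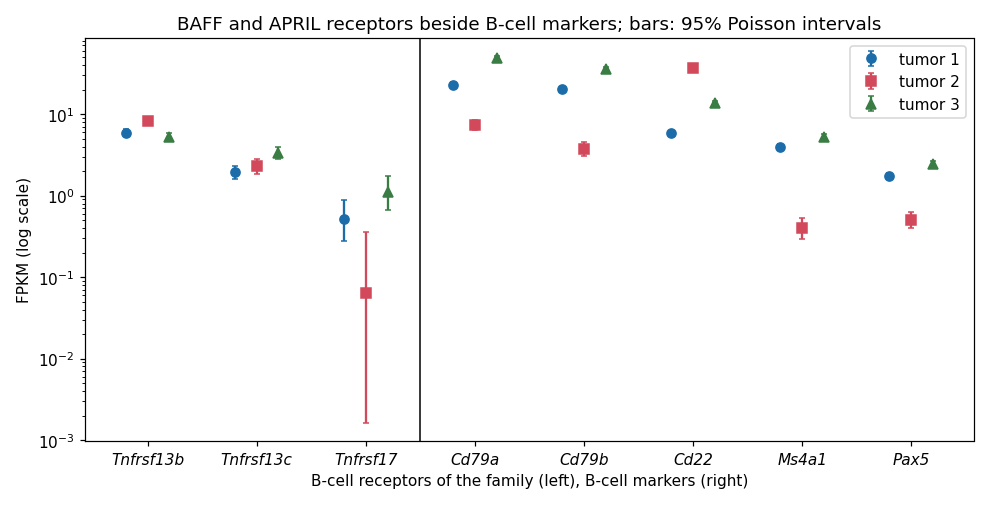
FPKM of the 3 BAFF and APRIL receptors (left of the line) and of 5 B-cell markers (right) on a log axis, with 1 point per tumor and bars for the 95% Poisson interval of the recovered reads. Tumor 2 (squares) is lowest for every marker but Cd22, and highest for Tnfrsf13b.

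Tnfrsf17 (BCMA), which plasma cells and their precursors carry, had 0.519, 0.0647 and 1.12 FPKM from 13, 1 and 19 reads. The ratio of tumor 3 to tumor 2 was 17.4, with a 95% exact interval from 2.76 to 721. Of the plasma cell genes, Mzb1 had 11, 2.62 and 25.8 FPKM and Sdc1 had 0.957, 0.595 and 1.09 FPKM, with the same order of tumors. The others differed, since Jchain had 814, 185 and 179 FPKM and Prdm1 had 3.07, 3.10 and 2.64 FPKM, both lowest in tumor 3. The ligands were low. Tnfsf13 (APRIL) had 2.03, 0.193 and 0.118 FPKM, from 102, 6 and 4 reads, and tumor 1 held 86.7% of the sum. Tnfsf13b (BAFF) had 0.351, 0.130 and 0.105 FPKM, from 74, 17 and 15 reads. Myeloid cells are the main source of both ligands, and the sum of the 6 macrophage markers, at 399.7, 134 and 35.6 FPKM, was likewise highest in tumor 1. Of these, Lyz2 had 215, 33.1 and 20.3 FPKM, while Cd68, with 19.6, 51.2 and 9.27 FPKM, was highest in tumor 2. The part of macrophages in these values was not tested.

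Tnfsf12 (TWEAK), Tnfsf13 and the antisense RNA Tnfsf13os lie in 1 locus of chromosome 11, where each shares exon bases with another gene. Tnfsf12 had 0.666, 1.25 and 0.0636 FPKM, the last from 2 reads, and the ratio of tumor 2 to tumor 3 was 19.7, with a 95% exact interval from 5.07 to 169. Tnfsf13os had 0.382, 0.0475 and 0.0391 FPKM, from 13, 1 and 0 reads. The readthrough gene Tnfsfm13, named after its values were seen, had 1.5, 0.613 and 0.129 FPKM. It shares 48.3% of the exon bases of Tnfsf12 and 60.0% of those of Tnfsf13, and 13.5% of those of Tnfsf13 lie opposite Tnfsf13os. Reads in these bases can belong to either gene that shares them, so the values of this locus are uncertain. Tnfrsf12a (Fn14), the receptor of TWEAK, which injured epithelium and stroma induce, had 0.811, 1.37 and 0.95 FPKM (mean 1.04 ± 0.290, SD, n = 3).

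Tnfsf11 (RANK ligand, ENSMUSG00000022015, chromosome 14), a product of activated T-cells and of bone and lymph node stroma, had 2.72, 0.495 and 0.624 FPKM, from 187, 21 and 29 reads. Tumor 1 held 70.9% of the sum. Its receptor Tnfrsf11a (RANK), of osteoclast precursors and dendritic cells, had 0.364, 0.167 and 0.0965 FPKM, from 67, 19 and 12 reads, and both partners were highest in tumor 1. Tnfrsf19 (TROY, ENSMUSG00000060548, chromosome 14), known from epithelial stem cells and the nervous system, had 77 reads in tumor 1, a level of 0.529 FPKM, against 0 and 1 reads in the others. Tumor 1 was at least 15.8-fold higher than tumor 2 and 52.1 times higher than tumor 3, with a 95% exact interval from 9.07 to 2082. The 4 epithelial markers summed to 0.563, 1.84 and 0.526 FPKM, and the part of epithelial cells was not tested.

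Spread between tumors was counted among the 20 members with a mean of at least 1 FPKM. In 13 of them (65.0%) the highest tumor was at least 2 times the lowest and the Poisson intervals did not overlap, against 33.9% of all genes under the same conditions. The 5 ligands among them were Tnfsf4, Tnfsf8, Tnfsf10, Tnfsf11 and Tnfsf14, and the 8 receptors were Tnfrsf1a, Tnfrsf1b, Tnfrsf4, Tnfrsf9, Tnfrsf10b, Tnfrsf21, Tnfrsf25 and Tnfrsf26. The 7 others were Tnfrsf12a, Tnfrsf13b, Tnfrsf13c, Tnfrsf14, Tnfrsf18, Tnfrsf22 and Tnfsf9. Tnfsf11, Tnfrsf21 and Tnfrsf25 reached a mean of 1 FPKM only through tumor 1, their highest. Without it their means were 0.560, 0.636 and 0.786 FPKM, so their entry rests on the spread that is counted. The median range of the 20 members was 2.46 times, and that of all genes was 1.68 times. With median-of-ratios factors Tnfsf9 and Tnfrsf13c, at 2.09 and 2.03 times, also passed (15 of 20 members, all genes 31.7%). With FPKM rescaled to equal sums 18 of 26 passed (all genes 44.1%), but Tnfsf10, at 1.99 times, lost its call. The count fell to 7 of 17 without tumor 1 (41.2%, all genes 15.3%), to 8 of 21 without tumor 2 (38.1%, all genes 17.1%) and to 11 of 22 without tumor 3 (50%, all genes 25.7%). On the log2(FPKM + 1) scale the median SD was 0.50 over the 30 members above 0.2 FPKM and 0.28 over all such genes, and without tumor 2 these were 0.31 and 0.22.

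**Figure D3:**
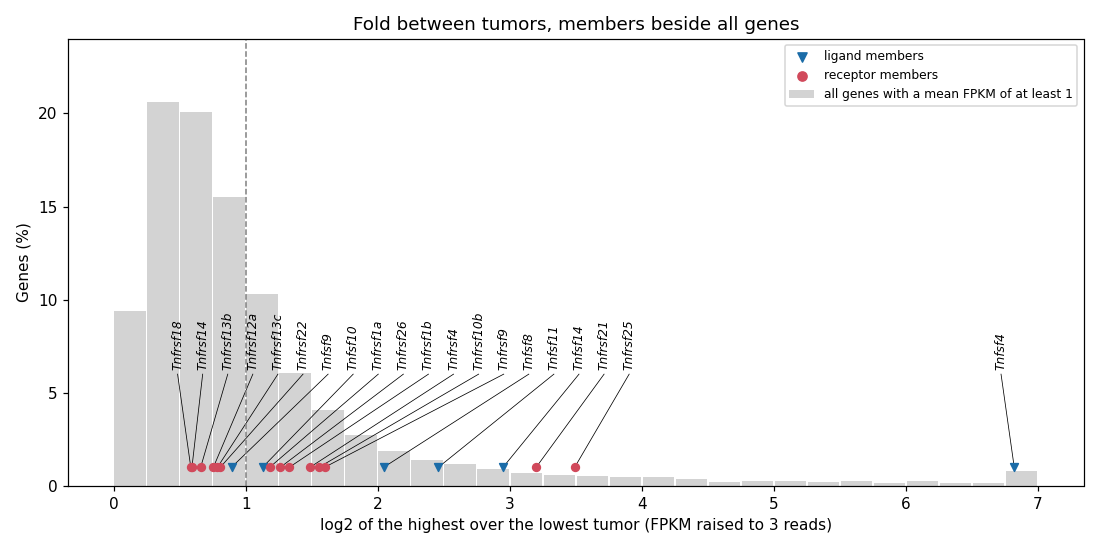
Share of all genes with a mean of at least 1 FPKM (grey bars) by the log2 of the highest over the lowest tumor, with the 20 members at that level as points (triangles, ligands; circles, receptors) and a dashed line at a fold of 2. The last bar holds all larger folds. The points run from Tnfrsf18 at 1.5 times to Tnfsf4 at the right edge, and 13 lie beyond the line.

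Which tumor was highest also varied. Of the same 20 members, 8 were highest in tumor 1 (40.0%, all genes 50.6%), 10 in tumor 2 (50%, all genes 33.7%) and 2 in tumor 3 (10%, all genes 15.7%). The 2 members highest in tumor 3 were Tnfsf8 and Tnfrsf13c, and Tnfsf8 moves to tumor 1 when FPKM are rescaled to equal sums, which shifts the tumors by 0.13, -0.01 and -0.12 on the log2 scale relative to their mean. Median-of-ratios factors, which shift the tumors by -0.13, 0.04 and 0.10 on that scale, left the highest tumor of the 30 members above 0.2 FPKM as it was.

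For 5 of the 30 members, more than 66.7% of the FPKM of all tumors came from 1 tumor, counting members above 0.2 FPKM in at least 1 tumor (16.7%), against 12.1% of 15859 genes. The 5 were Tnfrsf19 (96.3%), Tnfsf13 (86.7%), Tnfsf13os (81.5%), Tnfsf11 (70.9%) and Tnfrsf25 (69.9%). In each of them the tumor was tumor 1, and none was held by tumor 2 or 3. The shares of all genes held in this way were 5.97%, 5.42% and 0.731% for the 3 tumors. Since the share over all genes is near that of the members, the count is a description of these genes only. With a share over 50% it was 16 members, and 32.4% of all genes. Only 2 of the 5, Tnfsf11 and Tnfrsf25, have a mean of at least 1 FPKM, and 2 others lie in the Tnfsf13 locus of chromosome 11. Tnfrsf19, Tnfsf13 and Tnfsf13os passed 0.2 FPKM in tumor 1 only, so they were counted only through the tumor that holds them. With 1 tumor left out, 13 of 25 members (without tumor 1), 15 of 29 (without tumor 2) and 16 of 30 (without tumor 3) passed, against 26.4%, 27.2% and 34.1% of all genes, since 2 tumors reach such a share more easily.

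**Figure D4:**
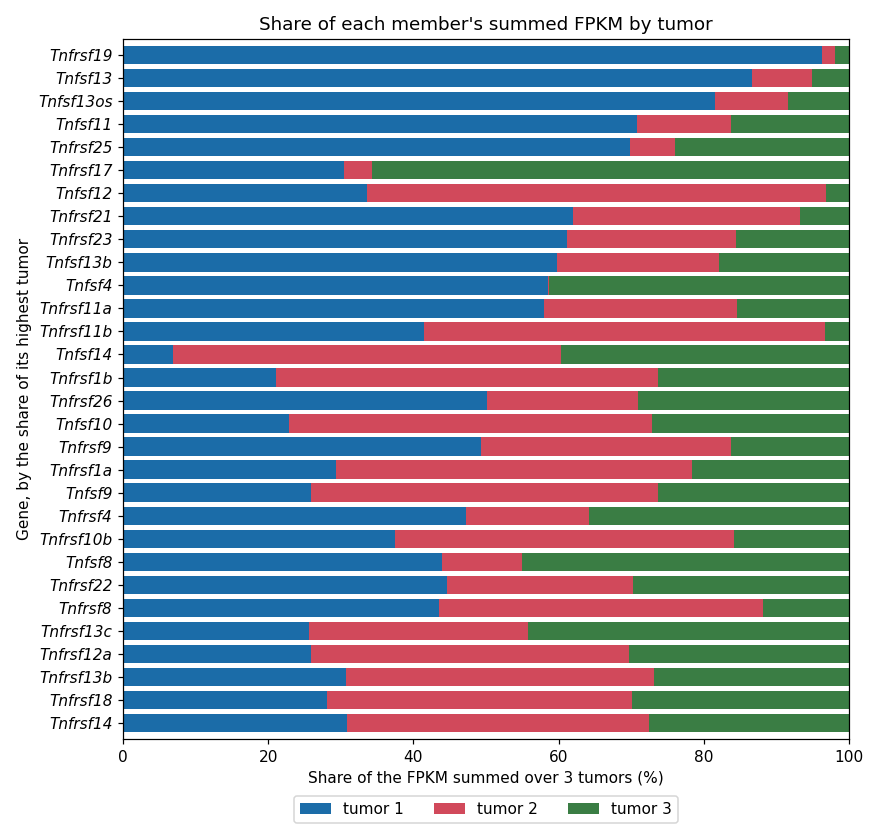
Share of each member's FPKM, summed over the tumors, that each tumor holds (blue, tumor 1; red, tumor 2; green, tumor 3), for the 30 members above 0.2 FPKM in at least 1 tumor. Genes are ordered by the share of their highest tumor, from 96.3% for Tnfrsf19 at the top to 41.6% for Tnfrsf14 at the bottom.

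On the genome, 9 of the 32 members lie on chromosome 4, and 9 pairs of neighboring members overlap or lie under 100 kb apart. Neither count was compared with all genes. In 7 of these pairs both genes passed 0.2 FPKM in at least 1 tumor, and their means differed by 1.18 to 98.7 times, with a median of 3.64 times. The widest contrast was between Tnfrsf1b and Tnfrsf8, 20.3 kb apart on chromosome 4. The smallest was within the locus of Tnfsf12 and Tnfsf13, whose reads cannot be fully parted. That ratio averages over opposite orders, since Tnfsf13 was 3.05 times above Tnfsf12 in tumor 1 and 6.48 times below it in tumor 2, and without tumor 1 the mean of Tnfsf12 was 4.23 times that of Tnfsf13. The other 2 pairs hold Tnfsf15 beside Tnfsf8 and Tnfsf18 beside Tnfsf4, for which no ratio is given because Tnfsf15 and Tnfsf18 had few reads.

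Superfamily members under other symbols numbered 15, of which 12 passed 0.2 FPKM in at least 1 tumor, as did 46.3% of all genes. Ltb (lymphotoxin beta), which lymphocytes express to organize lymphoid tissue, had 93.4, 205 and 155 FPKM (mean 151 ± 55.9, SD, n = 3), above every Tnfsf and Tnfrsf gene. Its receptor Ltbr, found on stromal and myeloid cells and not on lymphocytes, had 2.21, 1.79 and 0.511 FPKM. Cd27, a costimulatory receptor of T-cells, had 63.5, 75.8 and 65.1 FPKM (mean 68.1 ± 6.71, SD, n = 3), while its ligand Cd70 had 5, 0 and 3 reads. Fasl, the death ligand of cytotoxic T-cells, had 8.08, 53.4 and 15.1 FPKM, with 69.7% of the sum in tumor 2, and its receptor Fas had 16.0, 4.83 and 8.88 FPKM. Ligand and receptor thus had opposite order, with tumor 2 highest for Fasl and lowest for Fas, and the ratio of Fasl to Fas was 0.504, 11.1 and 1.71. Cd40, of B-cells and other antigen-presenting cells, had 2.88, 0.727 and 2.19 FPKM, and Cd40lg, of activated CD4+ T-cells, had 2.45, 0.127 and 1.69 FPKM, the value in tumor 2 from 3 reads. The ratio of tumor 1 to tumor 2 for Cd40lg was 19.3, with a 95% exact interval from 6.42 to 95.5. Like Tnfsf4 and Tnfrsf4, both were lowest in tumor 2.

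Relt, a receptor of lymphoid tissue, had 8.56, 13.8 and 12.9 FPKM (mean 11.7 ± 2.79, SD, n = 3). Ngfr had 0.208, 0.199 and 0.0419 FPKM, the last from 3 reads. Eda2r had 0.0552, 0.0179 and 0.311 FPKM, with 80.9% of the sum in tumor 3 from 38 reads. These receptors were low apart from Relt. Eda had 6, 0 and 1 reads, and Edar had none in any tumor. Of the 10 genes of this list with a mean of at least 1 FPKM, 7 (70%, against 33.9% of all genes at that level) had a spread beyond counting error (Ltb, Fasl, Fas, Tnf, Cd40, Ltbr and Cd40lg).

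Of 25 known ligand and receptor pairs, 11 had both partners above 0.2 FPKM in every tumor, 9 had only the receptor, 2 only the ligand and 3 neither. Taken singly, 36.7% of all genes and 49.2% of protein-coding genes passed that limit. No share over pairs of other genes was computed, so the counts describe these pairs only. They are not independent, since genes such as Tnf, Lta, Tnfrsf1a, Tnfrsf1b and Tnfrsf14 each stand in more than 1 pair. Among the 11, the receptor exceeded the ligand in every tumor in 6 pairs (Tnfsf14 with Tnfrsf14, Tnf with Tnfrsf1a and Tnfrsf1b, and Lta with Tnfrsf1a, Tnfrsf1b and Tnfrsf14). The ligand exceeded the receptor in every tumor in 2 pairs, Tnfsf10 with Tnfrsf10b and Ltb with Ltbr. In the other 3 pairs (Tnfsf9 with Tnfrsf9, Tnfsf14 with Ltbr, and Fasl with Fas) the order changed between tumors, beyond the Poisson intervals only for Fasl with Fas. The intervals overlapped for Tnfsf9 with Tnfrsf9 in tumors 2 and 3 and for Tnfsf14 with Ltbr in tumor 1. The pairs with a ligand only were Tnfsf8 with Tnfrsf8 and Tnfsf11 with Tnfrsf11a. A pair of RNA levels does not show that the proteins meet.

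**Figure D5:**
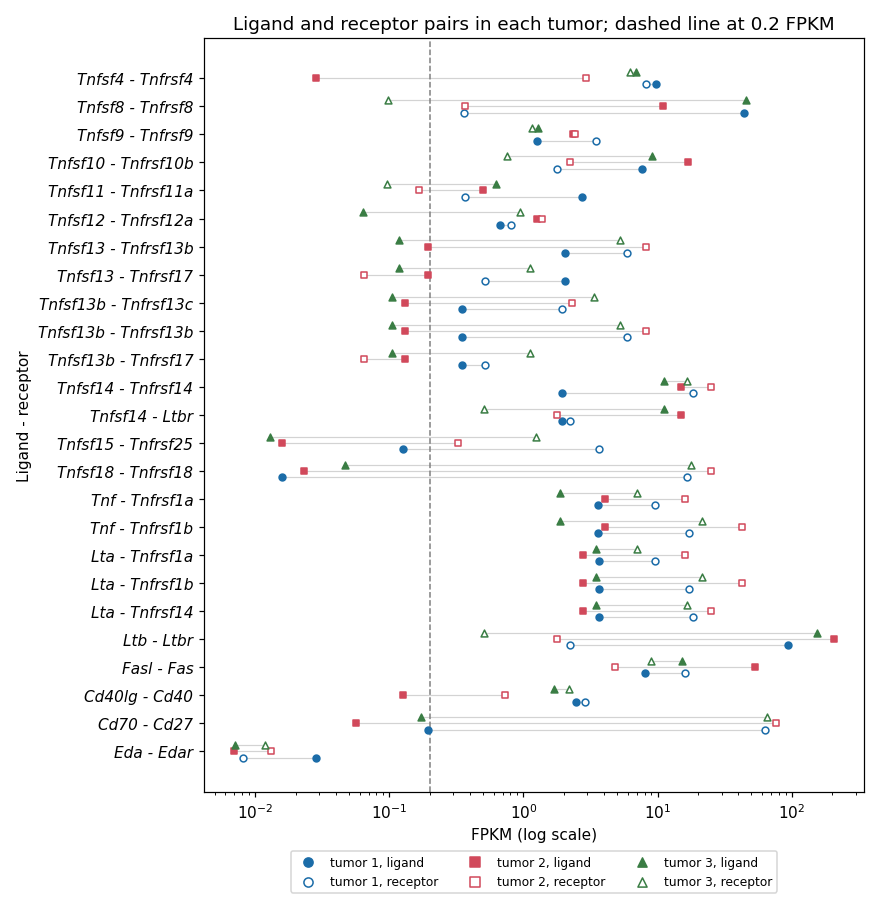
FPKM on a log axis of the ligand (filled) and the receptor (open) of 25 pairs in each tumor (circle, tumor 1; square, tumor 2; triangle, tumor 3), with a grey line joining partners in a tumor and a dashed line at 0.2 FPKM. In 11 pairs all 6 points lie right of the dashed line. Tnfsf18 lies far left of Tnfrsf18 and Ltb far right of Ltbr in every tumor.

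Genes that carry the signal from these receptors were taken as a list. All 21 of a list of TRAF proteins, death domain adaptors, caspase, kinases and ubiquitin enzymes were above 0.2 FPKM in every tumor, against 36.7% of all genes and 49.2% of protein-coding genes, and 3 of 21 (14.3%, against 33.9% of all genes with a mean of at least 1 FPKM) had a spread beyond counting error. The highest means were those of Rbck1 (HOIL-1, a part of the linear ubiquitin ligase) with 32.1, 52.2 and 34.7 FPKM, Casp8, the initiator caspase of death receptors, with 27.3, 25.2 and 22.6 FPKM, and Ripk3, the kinase of necroptosis, with 17.6, 15.9 and 22.9 FPKM. The 3 genes with a spread were Tradd, the adaptor of TNFR1 and DR3, with 6.24, 15.4 and 9.57 FPKM, the kinase Map3k7 (TAK1) with 10.5, 5.16 and 7.31 FPKM, and Tnfaip3 (A20), a feedback inhibitor of NF-kB, with 4.92, 6.65 and 3.28 FPKM. Their ranges were 2.47, 2.03 and 2.03 times. With median-of-ratios factors the ranges of Map3k7 and Tnfaip3 were 1.80 and 1.94 times, so only Tradd kept its call, and Sharpin passed at 2.14 times (2 of 21, all genes 31.7%). With FPKM rescaled to equal sums 5 of the 21 passed (all genes 44.1%). The median range of the list was 1.45 times, beside 2.46 times for the members and 1.68 times for all genes with a mean of at least 1 FPKM. The lists also differ in level, with a median mean of 8.37 FPKM in the signaling list and 5.66 FPKM over the 20 members with a mean of at least 1 FPKM, and the difference in spread was not tested.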

How the data were processed

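RNA-seq of 3 Dnmt3b+/- PTCL was analysed. Whole-genome bisulfite sequencing of 3 PTCL was not analysed here. The authors aligned 150 bp paired-end reads to mm10 with STAR and quantified those with a mapping quality of at least 50 in SeqMonk, and the deposited values are FPKM on a linear scale. The submitters' processing notes also name DESeq2, which was not used here. Strand use in counting is not given in the sources used here. 

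Reads were recovered from FPKM and merged exon lengths of GENCODE M21, or for 5 members from the whole length nearest to it that gave whole reads in all tumors. At a tolerance of 0.02 read, 92.6%, 92.6% and 92.7% of genes were whole in the 3 tumors, and 120 genes had no length. Spread was called at a fold of at least 2 with exact Poisson 95% intervals that did not overlap, after raising values to the FPKM of 3 reads. Ratios with 1 to 3 reads carry exact binomial intervals. CG were counted in RefSeq windows of GRCm38.p6. Calls were tested on simulated data with counting error and planted changes only, so other variation between tumors was not covered. Members and lists were chosen with earlier results of these data known. Every member was accounted for, with values for those above 0.2 FPKM in any tumor. From the other superfamily genes those above 0.2 FPKM were named, from the signaling list the 3 highest means and any gene with a spread or held by 1 tumor, and from the marker lists the most abundant gene and genes without a read. From the B-cell list 1 gene is not reported here. Other marker genes named beside a member were chosen after their values were seen. Alternatives were other thresholds, folds, shares, filters and pseudocounts, median-of-ratios factors, FPKM brought to a sum of 1000000 and each tumor left out. Python 3.11, pandas, NumPy, SciPy and matplotlib were used.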

Additional observations from a re-analysis of the deposited data

How the results depend on the processing

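No paired analysis was possible because the RNA-seq tumors form 1 group. Under each alternative the count of members above the expression threshold stayed within 1.5 times of 20. It ran from 14 at 1 FPKM to 26 with FPKM rescaled to sum to 1000000. The share of all genes is not given for these settings, so the counts describe the members only. The count of 13 members with a spread was 7 at a fold of 3 (all genes 16.3%), 23 of 30 without the filter on the mean (all genes 40.3%), and 7 to 11 with 1 tumor left out (all genes 15.3% to 25.7%). The count of 5 members held by 1 tumor was 16 at a share over 50% (all genes 32.4%), 2 of 20 at a mean of at least 1 FPKM (all genes 5.83%), 13 to 16 with 1 tumor left out (all genes 26.4% to 34.1%), where 2 tumors make a high share easier to reach, and 3 without Tnfsf12, Tnfsf13 and Tnfsf13os, an alternative chosen after seeing the data. Rescaling changes the unit: the median of the mean FPKM became 7.88, the ligand sum 312.8, the receptor sum 564, the median SD of log2 values 0.69 and the count of pairs 21. No share over pairs of other genes stands beside that last count. The median SD was 0.76 with a pseudocount of 0.1 and 0.31 to 0.41 with 1 tumor left out. The mean FPKM was followed for the 30 members above 0.2 FPKM in at least 1 tumor. All 30 moved by more than 1 SD with rescaling, and none with median-of-ratios factors. Leaving out 1 of 3 tumors cannot move a mean by more than 1 SD, so that limit shows nothing about stability there. By ratio, 12 moved by over 1.5 times when 1 tumor was left out. Depth limits the members with few reads: in tumor 2, with the lowest depth, 3 reads of Tnfsf4 correspond to 0.0859 FPKM. The causes of these changes were not tested.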
